A study of Mus musculus with 16 samples.

Results

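The glucose and fructose transporters of the kidney tubule were described by 6 genes: the sodium-coupled carriers Slc5a2 (SGLT2), Slc5a1 (SGLT1) and Slc5a10 (SGLT5), and the facilitative carriers Slc2a2 (GLUT2), Slc2a5 (GLUT5) and Slc2a1 (GLUT1). They were taken by symbol from the 27998 genes of the single-cell count matrices. All 6 were present, and each was followed across nephron segments, the endothelium and both genotypes, and in the authors' table of methylation regions.

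In the kidney, filtered glucose is taken up across the apical membrane of the proximal tubule by SGLT2, a carrier of high capacity in the early tubule, and by SGLT1, a carrier of high affinity in the late tubule. Glucose then leaves the cell across the basolateral membrane through GLUT2 and GLUT1. SGLT5 carries mannose and fructose, GLUT5 carries fructose, and GLUT1 is the basal glucose carrier of many cell types, which also transports the oxidised form of vitamin C.

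Kidneys of wild type and Gulo-/- mice, both labelled C57BL/6, were compared. Gulo codes for L-gulonolactone oxidase, which completes vitamin C synthesis in mice. The labels give neither the age, sex and diet of the animals nor the design of the allele, and they name no animal for a library. Bisulfite libraries of both genotypes contributed the methylation table, and the m6A and RNA libraries were not analysed here.

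The 4 single-cell libraries held 10208946 to 88925323 UMIs (counted molecules) and gave 1575 and 7006 cells for replicates 1 and 2 of the wild type and 1849 and 12403 for those of Gulo-/-, with median depths of 3014 to 4876.5 UMIs. Values per library below follow this order. Xist and Ddx3y UMIs put the first and last libraries as female and the other two as male, so the 2 libraries of a genotype came from different animals. P-values rest on the spread between 2 libraries that also differ in sex and depth. Gulo itself had 0, 1, 0 and 2 UMIs, so its level was not measurable. The wild type libraries had 986 cell barcodes in common, against 33.5 expected from their sizes, and replicate 2 was used without them. For the other pairs of libraries the overlap was 9 to 282, with 8.3 to 269.9 expected. Cells were assigned to a class by marker UMIs, none of them a member, and 2814 of 22833 cells fell in no class. The 10622 proximal tubule cells were divided by segment markers into early (S1), middle (S2) and late (S3) cells, and 4500 of them fit no segment. A total of 1346 cells lay near a class boundary and 3326 near a segment boundary. S3 cells numbered 47, 721, 34 and 191. In wild type replicate 2 the S3 cells had 1630 CPM of the 4 S2 markers, against 701, 884 and 237 CPM in the other libraries. Transporter differences called against S3 are therefore also given without that library. The S2 cells were not alike across libraries either. With cells scaled to equal depth, their median S1 marker UMIs were 27.6, 7.33, 12.9 and 24.3, against 17.5, 19.0, 19.1 and 12.4 for S2 markers. In wild type replicate 1 and Gulo-/- replicate 2 the S2 cells thus held more S1 than S2 marker RNA. A level in CPM is a gene's UMIs per 1000000 UMIs of the class in 1 library.

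Of the 31 methylation regions that the authors' table assigns to the 6 genes, 1 of Slc2a5 and 1 of Slc5a10 lie at the start of the gene. Their sequences are shown because they carry the methylation values given further on, which differ in direction. Letters are from the RefSeq promoter table for GRCm38.p6 (mm10), read 5′ to 3′ on the strand of the gene, with each CpG in capitals. The Slc2a5 sequence is the whole region with 1 base added on each side (chr4:150119133-150119318, plus strand), and it lies 26 to 211 bases before the RefSeq start. All 15 CpGs of the region are in it.
Slc2a5: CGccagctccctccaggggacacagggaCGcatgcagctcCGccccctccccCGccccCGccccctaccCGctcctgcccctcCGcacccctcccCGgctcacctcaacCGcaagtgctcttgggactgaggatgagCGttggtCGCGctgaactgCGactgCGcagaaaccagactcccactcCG
The Slc5a10 sequence (chr11:61719995-61720160, minus strand) is the part of the region that the promoter table covers before the start in the authors' annotation. It lies 10 to 175 bases before 1 of the 2 RefSeq starts and holds 3 of the 9 CpGs of the region.
Slc5a10: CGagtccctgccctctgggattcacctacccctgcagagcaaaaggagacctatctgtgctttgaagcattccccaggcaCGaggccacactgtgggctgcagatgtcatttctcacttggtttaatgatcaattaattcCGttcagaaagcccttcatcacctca
The C and G content was 70.4% in the Slc2a5 sequence and 50.6% in the Slc5a10 sequence.

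Promoter windows were found for 5 of the 6 genes, and Slc5a2 had no entry. In the 250 bases before the start there were 15 CpGs at Slc2a5, 13 at Slc2a1, 6 at Slc5a1, 2 at Slc2a2 and 3 in each of the 2 windows of Slc5a10, and the median over 32851 promoters was 6. The GC box letters GGGCGG, on either strand, occurred 3 times at Slc2a5 and 2 times at Slc2a1, and in 32.7% of all promoters. GTTAAT, a site of the HNF1 factors, occurred once in the upstream window of Slc5a10 (6.43% of promoters), and CAAAGNNCA, a site of HNF4, once in its downstream window (5.49%). CACGTG, an E box, occurred once at Slc5a1 (6.02%). TATAAA was in none of the 6 windows (12.4% of promoters).

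The first question was where along the nephron each gene was expressed. Slc5a2 was highest in S1, Slc5a10 in S3, and Slc5a1 in the thick ascending limb with a lower level in S2 and S3. Slc2a2 fell from S1 to S3, Slc2a5 was at similar levels in all 3 proximal segments, and Slc2a1 was low in the proximal tubule and highest in principal cells of the collecting duct. Class contrasts were fitted by edgeR to all genes together, with the library as a term, and the share of all genes called at an adjusted p under 0.05 is given beside each count.

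**Figure D1:**
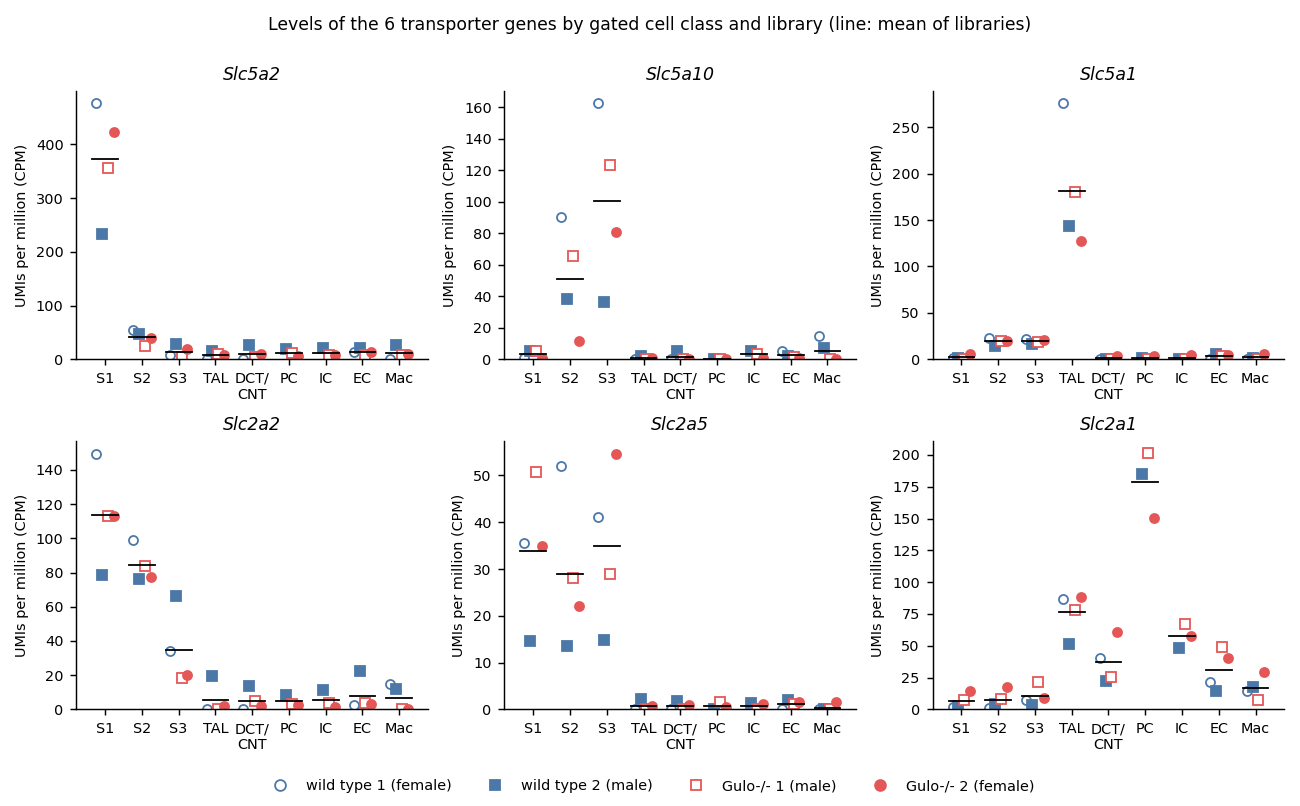
Level of each transporter gene (CPM, linear axis) in 9 gated classes, 1 point per library with at least 20 cells in the class and a line at the mean of the libraries (TAL, thick ascending limb; DCT/CNT, distal convoluted and connecting tubule; PC, principal cells; IC, intercalated cells; EC, endothelium; Mac, macrophages and monocytes). Slc5a2 stands at 233 to 476 CPM in S1, Slc5a1 at 127 to 276 CPM in the thick ascending limb and Slc2a1 at 150 to 201 CPM in principal cells.

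Slc5a2, the carrier that recovers most filtered glucose, had 476, 233, 356 and 424 CPM in S1, from 1015, 2923, 337 and 1507 UMIs. The level was lowest in wild type replicate 2 and the genotypes overlapped. In S2 it was 53.7, 47.2, 24.9 and 39.8 CPM, below every S1 value. In S3 it was 7.27, 28.0, 3.62 and 18.6 CPM. Means were 372 ± 105 CPM in S1, 41.4 ± 12.4 in S2 and 14.4 ± 11.1 in S3 (SD, n = 4). The S3 mean was close to those of the other classes with 3 or more libraries: 14.1 ± 4.73 in endothelium, 11.9 ± 6.17 in principal cells (n = 3), 11.5 ± 7.55 in intercalated cells (n = 3), 11.1 ± 11.0 in macrophages, 10.7 ± 11.8 in the distal convoluted and connecting tubule and 8.65 ± 6.40 in the thick ascending limb. These neighbours in the order did not differ beyond their spread, so the S3 level cannot be told apart from free RNA at this depth.

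At least 1 Slc5a2 UMI was found in 71.6%, 57.9%, 54.0% and 63.7% of S1 cells, at median depths of 4810, 4833, 3973 and 3343 UMIs. The shares in endothelial cells were 5.56%, 7.25%, 2.15% and 4.72%, at 3527, 3122, 1872 and 3330 UMIs. With every cell thinned to 1000 UMIs, the S1 shares were 37.8%, 20.6%, 26.1% and 31.3% and the endothelial shares were 2.22%, 2.90%, 0.923% and 1.04%, with no cell left out. The S1 share was above the endothelial share in all 4 libraries on both scales.

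From S1 to S2, Slc5a2 fell by 3.20 ± 0.33 on the log2 scale (SE; edgeR, adjusted p = 7.5e-07), and from S1 to S3 it fell by 4.58 ± 0.39 (adjusted p = 1.2e-08). Without wild type replicate 2 the second value was -5.28 (adjusted p = 4.4e-15). The S3 level was near the background, which limits it. Of the 6 genes, 3 were called between S1 and S2, where 3.97% of 9093 genes were called, and 4 between S1 and S3, where 7.96% were.

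Slc5a10 ran the other way. In S1 it had 0.938, 5.10, 5.28 and 1.12 CPM from 2, 64, 5 and 4 UMIs, near the endothelial mean of 2.42 ± 2.06 CPM. In S2 it had 90.2, 38.2, 65.4 and 11.3 CPM, and in S3 162, 36.6, 123 and 80.8 CPM. Every library was higher in S2 and in S3 than in S1. Wild type replicate 2 had nearly the same level in S2 and S3, and Gulo-/- replicate 2 was the lowest in S2. Means were 3.11 ± 2.40, 51.3 ± 34.1 and 101 ± 54.2 CPM (SD, n = 4).

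The S1 to S2 difference of Slc5a10 was 3.60 ± 0.48 on the log2 scale (edgeR, adjusted p = 2.7e-05), and that from S1 to S3 was 4.53 ± 0.49 (adjusted p = 7.1e-07), or 5.92 without wild type replicate 2 (adjusted p = 1.2e-11). Outside the proximal tubule the means were 5.44 CPM or less in classes with 3 or more libraries and 8.98 CPM in T and NK cells (n = 2), and the gene was called lower than in the proximal tubule in the thick ascending limb, distal convoluted and connecting tubule, endothelium and macrophages. A Slc5a10 UMI was seen in 57.5%, 22.2%, 50% and 22.5% of S3 cells, against 1.11%, 0.725%, 0.308% and 0.460% of endothelial cells. The S3 cells were the deepest of the 3 segments in all 4 libraries, with medians of 6330, 7269, 8188 and 3755 UMIs. At 1000 UMIs per cell the S3 shares were 12.8%, 3.61%, 14.7% and 6.81%.

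Slc5a1, the high-affinity glucose carrier, was low in S1, with 0.938, 1.75, 0 and 5.90 CPM. A count of 0 in Gulo-/- replicate 1 allows up to 3.17 CPM (3 UMIs). It had 22.8, 14.8, 20.2 and 19.2 CPM in S2 and 21.8, 16.8, 18.1 and 21.1 CPM in S3. The libraries lay close together, all S2 and S3 values were above all S1 values, and S2 (19.2 ± 3.33, SD, n = 4) and S3 (19.5 ± 2.41) did not differ beyond their spread. The difference was 2.90 ± 0.38 on the log2 scale from S1 to S2 (edgeR, adjusted p = 3.5e-06) and 2.83 ± 0.41 from S1 to S3 (adjusted p = 6.7e-06), or 2.54 without wild type replicate 2 (adjusted p = 0.0041). All 10 to 12 alternative fits kept these calls for Slc5a1, Slc5a2 and Slc5a10 where the gene was tested.

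The highest level of Slc5a1 was in the thick ascending limb, the segment that reabsorbs salt without water, with 276, 144, 180 and 127 CPM from 38, 132, 67 and 2425 UMIs. All 4 values were above those of every other class, and the mean was 182 ± 66.4 CPM (SD, n = 4). Against the mean of the proximal segments the difference was 3.90 ± 0.24 on the log2 scale (edgeR, adjusted p = 8.4e-15). All 6 genes differed in this contrast, where 50.3% of 9093 genes did: Slc5a1 and Slc2a1 were higher in the thick ascending limb and the other 4 lower. A Slc5a1 UMI was present in 41.7%, 42.4%, 38.3% and 39.9% of these cells, and in 0%, 2.17%, 0.923% and 1.61% of endothelial cells. In the next segment, the distal convoluted and connecting tubule, it had 0, 0, 0 and 15 UMIs, where 0 allows up to 24, 5.09 and 15.1 CPM.

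The 3 sodium-coupled carriers were also followed without the segment boundaries. The proximal tubule cells of each library were ordered by their S1 and S3 marker scores and cut into 5 equal bins. Slc5a2 fell from bin 1 to bin 5 in every library, from 598 to 14.1, from 317 to 25.1, from 371 to 10.1 and from 442 to 19.3 CPM. Slc5a10 went from 8.19 to 88.1, from 5.08 to 41.7, from 8.93 to 81.2 and from 0.368 to 41.0 CPM. The order used other genes of the same cells, so cells near each other also share their whole profile.

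**Figure D2:**
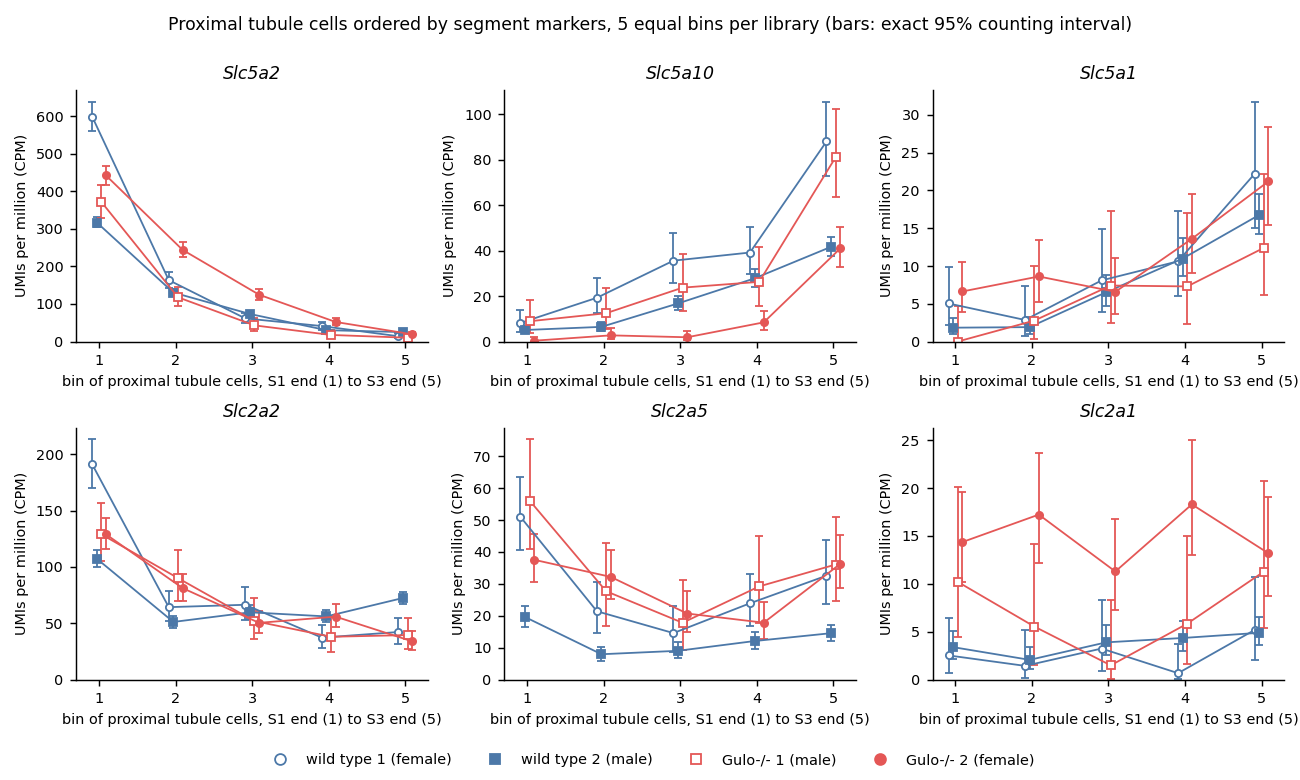
Level of each transporter gene (CPM, linear axis) in 5 bins of proximal tubule cells ordered from the S1 end (1) to the S3 end (5), 1 line per library with exact 95% Poisson intervals. Slc5a2 falls from 317 to 598 CPM in bin 1 to 10.1 to 25.1 CPM in bin 5, Slc5a10 and Slc5a1 are highest in bin 5 of each library, and Slc2a5 is lowest in a middle bin of each.

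Between S2 and S3 none of the 6 genes was called by edgeR, where 0.451% of 9093 genes were. Slc5a2 differed by -1.37 ± 0.40 (log2, SE; adjusted p = 0.212), Slc2a2 by -1.44 ± 0.49 (adjusted p = 0.407) and Slc5a10 by 0.93 ± 0.40 (adjusted p = 0.782), each with an unadjusted p under 0.05, and DESeq2 also called 0. Without wild type replicate 2 all 3 were called, at -1.88 (adjusted p = 0.00238), -1.99 (adjusted p = 2.4e-05) and 1.30 (adjusted p = 0.0161). The same 3 genes were called with no filter on low counts. The calls between S2 and S3 thus depended on that library and on the filter. The S3 cells of wild type replicate 2 were high in S2 markers, and the part of this in the calls was not tested.

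Slc2a2, the basolateral exit carrier for glucose, had 150, 78.8, 113 and 113 CPM in S1. It had 99.2, 76.2, 84.0 and 77.2 CPM in S2, and 33.9, 66.4, 18.1 and 19.9 CPM in S3. It was lower in S2 than in S1 and lower in S3 than in S2 in all 4 libraries, and S3 was highest in wild type replicate 2. Means were 114 ± 28.9, 84.2 ± 10.6 and 34.6 ± 22.4 CPM (SD, n = 4). Between S1 and S2 the log2 difference was -0.45 ± 0.41 (edgeR, adjusted p = 0.796), within the spread of the libraries. Between S1 and S3 it was -1.90 ± 0.48 (adjusted p = 0.0158), and -2.50 without wild type replicate 2 (adjusted p = 2.9e-08). The call was lost without wild type replicate 1 (adjusted p = 0.0907), Gulo-/- replicate 1 (adjusted p = 0.117) or Gulo-/- replicate 2 (adjusted p = 0.123).

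Along the 5 bins Slc2a2 went from 191 to 42.2, from 107 to 72.4, from 129 to 39.5 and from 129 to 33.9 CPM. In wild type replicate 2 the lowest bin was bin 2, at 51.1 CPM, so the profile of that library was not a steady fall. In the other classes with 3 or more libraries the means were 4.71 to 8.03 CPM, and the gene was called lower in each class tested. In classes held by 1 or 2 libraries they ran from 0.836 CPM in thin limb cells to 16.8 CPM in neutrophils. Both of these means rest on fewer than 3 UMIs per library. The endothelial values were 2.72, 22.3, 3.74 and 3.37 CPM, highest in wild type replicate 2. A Slc2a2 UMI was present in 45.2%, 31.4%, 34.6% and 32.6% of S1 cells and in 1.11%, 7.97%, 0.923% and 1.61% of endothelial cells.

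Slc2a5, the fructose carrier, had 35.6, 14.6, 50.7 and 34.9 CPM in S1. It had 52.0, 13.4, 28.0 and 22.1 CPM in S2, and 41.2, 14.7, 29 and 54.7 CPM in S3. Wild type replicate 2 was the lowest library in each segment, and the order of the other libraries changed from segment to segment. Means were 33.9 ± 14.8, 28.9 ± 16.5 and 34.9 ± 17.1 CPM (SD, n = 4), and the S1 to S3 difference was 0.01 ± 0.26 on the log2 scale (edgeR, adjusted p above 0.99), with either sign among the alternative fits. In the binned cells Slc2a5 was highest in bin 1 of each library: bins 1 to 5 held 51.0, 21.4, 14.6, 23.9 and 32.6 CPM in wild type replicate 1, and 19.6, 7.93, 9.01, 12.1 and 14.5 in wild type replicate 2. They held 56.1, 27.7, 17.8, 29.2 and 36.1 CPM in Gulo-/- replicate 1, and 37.6, 32.2, 20.7, 17.8 and 36.3 in Gulo-/- replicate 2. A dip in the middle bins was therefore seen in every library. Among the 3 segments, S2 was lowest in each library but wild type replicate 1, where it was highest. The bins also hold the cells that fit no segment, and the part of those cells in the dip was not tested.

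In the 6 other classes with 3 or more libraries the mean level of Slc2a5 was 1.24 CPM or less. Among classes held by 1 or 2 libraries the highest mean was 16.8 CPM, in neutrophils (n = 2). It came from 27.9 CPM in the wild type and 5.66 CPM in the Gulo-/- library, each from fewer than 3 UMIs. It was the gene with the largest fall from the proximal tubule to the thick ascending limb (-5.37 ± 0.45, log2; edgeR, adjusted p = 4.0e-12). A Slc2a5 UMI was found in 18.2%, 7.78%, 19.0% and 13.3% of S1 cells and in 0%, 0.725%, 0.308% and 0.806% of endothelial cells.

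Slc2a1, the basal glucose carrier, had a different order. In principal cells, the water-transporting cells of the collecting duct, it had 185, 201 and 150 CPM in the 3 libraries with at least 20 such cells, from 110, 130 and 1093 UMIs. A Slc2a1 UMI was present in 73.6%, 59.8% and 67.2% of these cells, and in 1.48%, 2.39%, 3.01% and 5.58% of proximal tubule cells. Thin limb cells were numerous enough in Gulo-/- replicate 2 alone, at 140 CPM from 133 cells. Next came the thick ascending limb at 87.1, 51.2, 78 and 88.5 CPM.

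Intercalated cells, the acid and base secreting cells, had 48.1, 67.5 and 57.8 CPM, and the distal convoluted and connecting tubule 40.0, 22.1, 25.1 and 61.1. Endothelium had 21.7, 14.2, 48.7 and 40.2 CPM. Macrophages had 14.8, 17.4, 7.41 and 29.1 CPM. The proximal tubule had 2.54, 3.8, 7.20 and 14.9 CPM. Principal cells stood above all other classes with 3 or more libraries in each library. Means of the thick ascending limb (76.2 ± 17.3), intercalated cells (57.8 ± 9.70), distal tubule (37.1 ± 17.8) and endothelium (31.2 ± 16, SD) each overlapped with their neighbour in this order.

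Against the mean of the proximal segments, Slc2a1 was higher by 3.14 ± 0.27 in the thick ascending limb (log2, SE; edgeR, adjusted p = 1.7e-11) and by 2.23 ± 0.31 in the distal tubule (adjusted p = 3.7e-07). It was higher by 1.66 ± 0.31 in endothelium (adjusted p = 1.5e-05). In macrophages the difference was 1.5 ± 0.43 (adjusted p = 0.0034), and without wild type replicate 2 it was 1.05 (adjusted p = 0.0998). With the 3 libraries that held enough cells, it was higher by 4.0 ± 0.28 in principal cells (adjusted p = 4.6e-14) and by 2.48 ± 0.32 in intercalated cells (adjusted p = 4.8e-08). The contrasts called 6 of 6 genes in the distal tubule (46.3% of all genes), 6 in endothelium (69.2%), 5 in macrophages (57.9%), 6 in principal cells (58% of 10143) and 6 in intercalated cells (51.5%). The gene not called was Slc5a1 in macrophages (adjusted p = 0.063). With backgrounds of this size, a count of genes called says little about the transporters, and the levels carry the description.

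The carriers were also read cell by cell. Among proximal tubule cells with a Slc5a2 UMI, 3.41%, 7.70%, 2.76% and 1.24% also had a Slc5a10 UMI, against 17.5%, 12.7%, 12.8% and 4.15% of cells without Slc5a2. The share was lower in all 4 libraries even though cells with Slc5a2 were deeper (median 5409 against 3564, 6337 against 4396, 4627 against 3601 and 3446 against 3076 UMIs). Slc2a2 showed the opposite: 44.8%, 40.6%, 39.2% and 34.3% of Slc5a2 cells had it, against 19.3%, 25.5%, 18% and 16.3% of the rest. Slc5a1 was seen in 16.1%, 11.4%, 10.7% and 14.4% of Slc5a10 cells, against 3.29%, 4.15%, 1.4% and 3.70% of cells without Slc5a10. Slc2a5 was seen in 28.4%, 10.4%, 25% and 22.2% of Slc5a10 cells, against 11.6%, 7.21%, 12.0% and 10.4%. Cells with Slc5a10 were also deeper, with medians of 5053, 7602, 6144 and 3693 UMIs against 3980, 4887, 3656 and 3150. Greater depth raises the share of cells with a UMI of any gene. The part of depth in the last 2 pairs of genes, and in that of Slc5a2 with Slc2a2, was not tested.

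Within the thick ascending limb, cells were divided by the UMIs of 2 claudins, of which Cldn16 marks the calcium and magnesium reabsorbing cells. This division was chosen after the values were seen, and Cldn16 is also one of the gate's markers. Cells with a Cldn16 UMI had 367, 191, 291 and 172 CPM of Slc5a1, and cells with a Cldn10 UMI and none of Cldn16 had 218, 112, 125 and 106 CPM. Slc5a1 was higher in the Cldn16 cells in all 4 libraries. Slc2a1 was lower in the Cldn16 cells than in those with Cldn10 alone, with 40.8, 43.3, 36.4 and 82.1 CPM against 121, 57.9, 109 and 99.8 CPM. Cells with neither UMI (2, 15, 23 and 495) had 0, 50.2, 64.4 and 52.2 CPM of Slc2a1, which in Gulo-/- replicate 2 was below both other groups, and 319.95, 83.6, 155 and 108 CPM of Slc5a1. The groups held 12, 64, 27 and 1035 cells with Cldn16 and 22, 93, 57 and 1980 with Cldn10 alone, so the smaller libraries carry wide counting intervals.

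**Figure D3:**
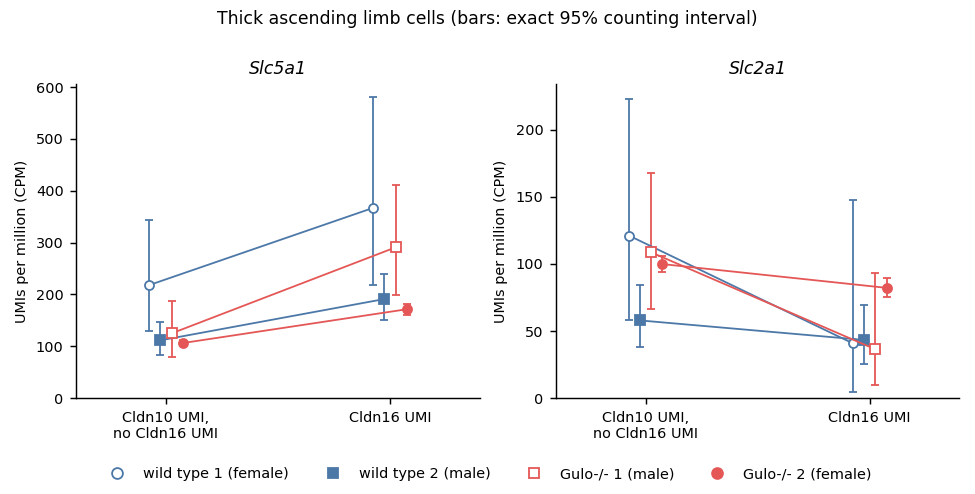
Levels of Slc5a1 and Slc2a1 (CPM, linear axis) in thick ascending limb cells with a Cldn10 UMI and none of Cldn16, and in those with a Cldn16 UMI, 1 line per library with exact 95% Poisson intervals. Slc5a1 rises from 106 to 218 CPM on the left to 172 to 367 CPM on the right, and Slc2a1 is lower on the right in each library.

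The second question was whether the transporters differed between wild type and Gulo-/- kidneys within a class. Genotypes were compared by edgeR on UMI sums per library. No transporter was called in any class: 0 of 6 in the proximal tubule as a whole (0.585% of 11120 genes called), 0 of 5 in S1 (0.526%), 0 of 6 in S2 (0.54%), 0 of 5 in S3 (0.0998%), 0 of 2 in the thick ascending limb (1.99%), 0 of 1 in the distal convoluted and connecting tubule (0.41%) and 0 of 1 in endothelium (0.536%). Genes left out had too few UMIs for the filter. At an unadjusted p under 0.05 there were 1, 1, 2, 1, 0, 0 and 1 transporters in these classes, and DESeq2 called 0 in each. Principal and intercalated cells could not be compared, since wild type replicate 1 held 4 and 9 of them.

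Slc2a1 in the proximal tubule came nearest. The wild type libraries had 2.54 and 3.8 CPM (18 and 141 UMIs) and the Gulo-/- libraries 7.20 and 14.9 CPM (27 and 168 UMIs), so the genotypes did not overlap. Means were 3.17 ± 0.888 CPM in wild type and 11.0 ± 5.42 CPM in Gulo-/- libraries (SD, n = 2 each). The log2 difference was 1.63 ± 0.40 (SE; edgeR, adjusted p = 0.130). In S1, with 1.88, 2.95, 7.39 and 14.6 CPM, it was 2.07 ± 0.43 (adjusted p = 0.0819), and in S2, with 0.813, 4.42, 7.78 and 17.7 CPM, 1.89 ± 0.61 (adjusted p = 0.215). In S3 Slc2a1 had 7.27, 3.73, 21.7 and 8.70 CPM, an order of libraries unlike that in S1 and S2. The log2 difference there was 0.26 in the female and 2.54 in the male libraries. Over the alternative fits the value was 1.04 (without Gulo-/- replicate 2) to 1.99 (without Gulo-/- replicate 1) in the whole proximal tubule, called in 2 of 13 (no filter on low counts, adjusted p = 0.00247, and replicate block, 0.0271), and 1.47 to 2.45 in S1, called in 5 of the 13 that gave an adjusted p. In S1 the calls included those without wild type replicate 1 (adjusted p = 0.0132) and without wild type replicate 2 (0.0449). In S2 it was called in 1 of 11, without wild type replicate 2, at 3.76 (adjusted p = 0.0400).

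In endothelium Slc2a1 had 21.7 and 14.2 CPM in wild type and 48.7 and 40.2 CPM in Gulo-/- libraries, without overlap, and a log2 difference of 1.16 ± 0.41 (edgeR, adjusted p = 0.366). In the thick ascending limb (0.37 ± 0.36, adjusted p = 0.990) and the distal tubule (0.87 ± 0.48, adjusted p = 0.757) the libraries of the genotypes overlapped.

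Markers of other classes also differed between libraries. In proximal tubule cells all 5 principal cell markers were present in each library, at a summed 24.7, 54.6, 116 and 325 CPM, the same order of libraries as Slc2a1. The 4 thick ascending limb markers summed to 21.5, 123, 93.6 and 692 CPM and the 10 endothelial markers to 13.1, 18.5, 120 and 75.9 CPM. Of the 8 intercalated cell markers 6, 8, 8 and 8 were present, at 3.25, 33.3, 19.7 and 152 CPM. Unlike the principal cell markers, these lists did not follow the order of libraries of Slc2a1. In endothelial cells 0, 4, 5 and 5 of the 5 principal cell markers were present, at 0, 42.6, 117 and 318 CPM. That order of libraries was unlike the order of Slc2a1 in endothelium. Slc2a1 was high in those classes, and the part of their RNA in its difference between genotypes was not tested.

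**Figure D4:**
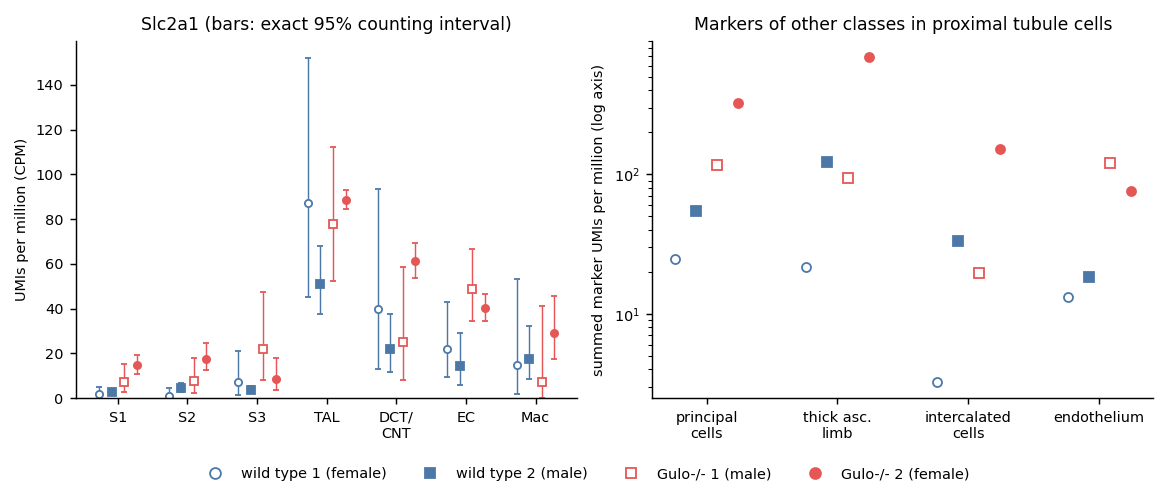
Left, Slc2a1 (CPM, linear axis, exact 95% Poisson intervals) by class and library. Right, summed CPM of the markers of 4 other classes in proximal tubule cells (log axis): the Gulo-/- libraries have 7.20 and 14.9 CPM of Slc2a1 in these cells and 116 and 325 CPM of principal cell markers, against 24.7 and 54.6 CPM in wild type. The other lists do not follow the order of libraries of Slc2a1.

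Slc5a2 in S1 differed between genotypes by 0.01 ± 0.37 on the log2 scale (edgeR, adjusted p = 0.995), with either sign among the alternatives. In S2 the wild type values of 53.7 and 47.2 CPM lay above the Gulo-/- values of 24.9 and 39.8 CPM, with a difference of -0.75 ± 0.33 (adjusted p = 0.309). Slc2a2 in S3 was 33.9 and 66.4 CPM in wild type and 18.1 and 19.9 CPM in Gulo-/- libraries, the latter from 5 and 16 UMIs. Its difference was -1.52 ± 0.53 (adjusted p = 0.467) and was called without wild type replicate 1 (-1.90, adjusted p = 0.0311), which leaves the library with high S2 markers as the only wild type one. Slc5a1 in the thick ascending limb differed by -0.44 ± 0.32 (adjusted p = 0.935), with overlapping libraries.

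Slc5a10 varied more within a genotype than between genotypes. In S1 Slc2a5 had 25.1 ± 14.9 CPM in wild type and 42.8 ± 11.2 CPM in Gulo-/- libraries (SD, n = 2 each). In the whole proximal tubule it had 21.2 ± 11.8 and 31.7 ± 3.35 CPM, and the genotypes overlapped in both. Slc5a10 differed by -0.64 ± 0.71 in the whole proximal tubule (adjusted p = 0.685) and by -1.01 ± 1.15 in S2 (adjusted p = 0.728), and the library with the lowest S2 level was Gulo-/- replicate 2 while that with the lowest S3 level was wild type replicate 2. Slc2a5 differed by 0.69 ± 0.51 in S1 (edgeR, adjusted p = 0.494), and without wild type replicate 1 by 1.44 (adjusted p = 0.00865). The SE over the 6 genes and 4 proximal divisions ran from 0.23 to 1.15 on the log2 scale, so the lack of a call does not show that levels were equal.

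Other genes of hexose handling were described from a list of 36. Between genotypes, 0 of 27 list genes tested in the whole proximal tubule were called, 1 of 23 in S1 (lower), 0 of 22 in S2, 0 of 17 in S3, 3 of 16 in the thick ascending limb (all lower), 0 of 13 in the distal tubule and 0 of 16 in endothelium. Of all genes tested, 0.526% were called in S1 and 1.99% in the thick ascending limb. The S1 gene was Pck1, which makes phosphoenolpyruvate in gluconeogenesis. It had 925 and 722 CPM in wild type and 214 and 154 CPM in Gulo-/- libraries, without overlap, and fell by 2.27 ± 0.29 on the log2 scale (edgeR, adjusted p = 0.0302). The call was lost without either Gulo-/- library (adjusted p = 0.0969 and 0.228). With sex as a block in edgeR, Pck1 was also called lower in S2 (-1.62, adjusted p = 0.0125) and in endothelium (-2.36, adjusted p = 0.0453). It was the 1 list gene called in each, where 2.98% and 0.55% of all genes were. With cells scaled to equal depth, median UMIs of the general proximal tubule markers in endothelial cells were 3.13, 8.21, 0 and 1.63. The part of free proximal tubule RNA in the endothelial call was not tested. The list's median was 0.03 in S1, beside 0.03 for all genes.

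In the thick ascending limb Pck1 (-2.58, adjusted p = 1.2e-06), the scaffold gene Pdzk1 (-2.10, adjusted p = 9.1e-05) and the gluconeogenic Fbp1 (-2.0, adjusted p = 4.9e-06) were lower in Gulo-/- libraries by edgeR, with a list median of -0.51 beside 0.02 for all genes. Without wild type replicate 2, Fbp1 had an adjusted p of 0.727 and the other two had too few UMIs to be tested, and DESeq2 called none of the 3. Without Gulo-/- replicate 2, Pck1 (adjusted p = 0.106) and Pdzk1 (0.346) were lost, and with the sex block Pdzk1 (0.156). These are genes of the proximal tubule: Pck1 had 21.8, 77.3, 16.1 and 10.5 CPM here, against 154 to 925 CPM in S1. The 6 general proximal tubule markers summed to 247, 714, 223 and 206 CPM in thick ascending limb cells, with 4, 6, 6 and 6 of them present. The part of free proximal tubule RNA in these 3 calls was not tested.

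Along the proximal tubule, 2 of the 26 list genes tested were called between S1 and S2, 5 between S1 and S3 and 0 between S2 and S3. The shares of all genes called were 3.97%, 7.96% and 0.451% in that order. Txnip, an inhibitor of glucose uptake, rose from S1 to S2 by 1.70 and from S1 to S3 by 1.52 (log2; edgeR, adjusted p = 0.022 and 0.032). Its levels were 6.56, 13.8, 16.9 and 45.0 CPM in S1, 106, 36.1, 46.7 and 72.3 in S2, and 58.2, 60.2, 32.6 and 90.7 in S3, higher in S2 and S3 than in S1 in each library. Its relative Arrdc4 fell by 1.31 and 1.18. From S1 to S3, Pdzk1ip1, which encodes the SGLT2 partner MAP17, fell by 1.27 (adjusted p = 0.019), and the glucose release genes G6pc and Slc37a4 fell by 1.15 (0.0096) and 0.74 (0.043). Each of these 7 calls was lost on leaving out 1 library in 2 or 3 of 4 cases. Between S1 and S2, Txnip was lost without wild type replicate 1 (adjusted p = 0.296), wild type replicate 2 (0.154) or Gulo-/- replicate 1 (0.0520), and Arrdc4 without wild type replicate 1 (0.0657) or Gulo-/- replicate 2 (0.0727). Between S1 and S3, Txnip was lost without wild type replicate 1 (0.0946) or 2 (0.273), Pdzk1ip1 without Gulo-/- replicate 1 (0.0736) or 2 (0.158), and G6pc without wild type replicate 1 (0.0776) or Gulo-/- replicate 2 (0.242). Slc37a4 was lost without wild type replicate 1 (0.326), Gulo-/- replicate 1 (0.165) or Gulo-/- replicate 2 (0.417), and Arrdc4 without wild type replicate 1 (0.118), wild type replicate 2 (0.398) or Gulo-/- replicate 2 (0.0985). From S1 to S3, DESeq2 did not call Arrdc4 (adjusted p = 0.0597), G6pc (0.0785) or Slc37a4 (0.154), and RLE size factors (0.0593) and the stricter gate (0.0816) lost Slc37a4. Without wild type replicate 2, G6pc was at -1.5 (adjusted p = 1.8e-05) and Slc37a4 at -1.13 (0.00050).

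Against the proximal tubule, 6 list genes were higher and 15 lower in the thick ascending limb, 8 and 14 in the distal tubule, 8 and 16 in endothelium, and 7 and 16 in macrophages, of 26 tested each time. Of all genes tested, 50.3%, 46.3%, 69.2% and 57.9% were called in these contrasts. List medians were -2.27, -3.14, -3.57 and -2.88 (log2), beside 0.05, 0.02, 0.21 and 0.04 for all genes. In the thick ascending limb the largest changes included those of the inositol carrier Slc5a3 (5.64), the hexokinase Hk1 (5.11), the insulin-regulated carrier Slc2a4 (4.75), the inositol carrier Slc5a11 (-4.54), Pdzk1 (-4.44), Pck1 (-4.43) and Fbp1 (-4.38). Slc5a3 had 334, 235, 444 and 353 CPM there and 1.41, 2.47, 4.23 and 12.4 CPM in S1, and Slc2a4 had 50.8, 64.2, 40.3 and 53.8 CPM there.

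In the distal tubule the largest included Slc5a11 (-5.40), Pdzk1 (-4.82), Slc2a4 (4.81), G6pc (-4.39), Fbp1 (-4.33), Hk1 (4.25) and the carbohydrate-response factor Mlxipl (-4.09). Slc2a4 had 56.1, 45.8, 60.2 and 61.4 CPM there, within the range of the thick ascending limb. In endothelium they included Slc5a11 (-6.43), G6pc (-4.72), Mlxipl (-4.69), the transcription factor Hnf4a (-4.37), Pck1 (-4.27), Fbp1 (-4.19) and Pdzk1 (-4.19). In macrophages the hexokinase Hk2 had 126, 47.0, 126 and 64.3 CPM (17, 27, 17 and 42 UMIs) and 1 UMI in all S1, S2 and S3 cells together, so no fold is given. G6pc (-4.23), Pdzk1 (-4.21), Fbp1 (-3.99), Slc5a11 (-3.88), the sorbitol dehydrogenase Sord (-3.55) and Pck1 (-3.55) were lower there.

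For each transporter the 3 genes with the most similar pattern were found by Pearson r of log2(CPM + 10) over 43 sums of 15 classes, among 11502 genes. The sums share libraries and depth, so r is a description. Nearest to Slc5a2 were Slc34a3 (0.910), Snhg11 (0.883) and Nepn (0.859). Slc5a10 was nearest to Dmgdh (0.911), Slc5a8 (0.891), which is one of the S3 gate markers, and Cyp4a10 (0.876). For Slc5a1 the nearest were Kcnt1 (0.884), the gate marker Cldn16 (0.878) and Defb42 (0.875).

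Slc2a2 lay nearest to G6pc (0.934), Lpar3 (0.933) and Fam151a (0.929). Slc2a5 lay nearest to Slc39a5 (0.929), Cyp2j5 (0.903) and Spink1 (0.902). The nearest genes to Slc2a1 were less close, Atp2c1 (0.872), Stk39 (0.846) and Capn1 (0.833).

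The third question was DNA methylation at the 6 genes. The authors' deposited table lists 86510 regions that differ between genotypes, with a mean level on each of 2 sides. Which side is which genotype is not stated in it, so direction is given as side 1 against side 2, and the table holds no replicate values or coverage. In whole-kidney DNA, a change within a cell type and a change in the mix of cell types cannot be told apart. Of the 31 regions assigned to the 6 genes, 28 were lower on side 1 (90.3%), against 53.8% of all regions in the table. Their median signed difference was -0.201 as a fraction of methylated CpGs, against -0.117. Regardless of sign, the median size of the difference was 0.211, against 0.192 for all regions. Regions of 1 gene are not independent, and 4 of the 31 lie inside another gene.

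Slc5a2 had 4 regions, all exonic and all lower on side 1, by 14.9 to 18.5 percentage points: chr7:128267205-128267582 in exon 4 of 14, chr7:128268978-128269352 in exon 7, and chr7:128270748-128270814 and chr7:128270910-128271030 in exon 11. Slc2a1 had 6 regions, 4 in introns 1 and 2 and 2 intergenic, all lower on side 1 (differences of -0.236 to -0.151). Slc2a5 had 5, all lower on side 1 (-0.286 to -0.201). Slc2a2 had 9, of which 8 were lower, Slc5a1 had 4, of which 3 were lower, and Slc5a10 had 3, of which 2 were lower.

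The largest difference of the 31 was in intron 1 of Slc2a2 (chr3:28699086-28699465, 10 CpGs), with 29.6% on side 1 and 65.1% on side 2 in the authors' deposited table. Next to it, 2 promoter regions of Slc2a2 at -614 and 485 bases from the start were lower on side 1 by 18.9 and 22.3 percentage points. The Slc2a5 region printed above (chr4:150119134-150119317 in the table, 15 CpGs) had 34.1% and 62.7%. The Slc5a10 region (chr11:61719811-61720159, 9 CpGs) had 62.3% and 37.4%, the reverse direction. So of the 4 promoter regions of these genes 3 were lower on side 1, where 78.5% of the table's 7867 promoter regions were, a share close to this background. The other 2 regions higher on side 1 were an intergenic one assigned to Slc5a1 (chr5:33077454-33077950, 96.3% and 74.1%) and one assigned to Slc2a2 inside another gene (chr3:28746661-28746961, 77.0% and 57.5%).

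**Figure D5:**
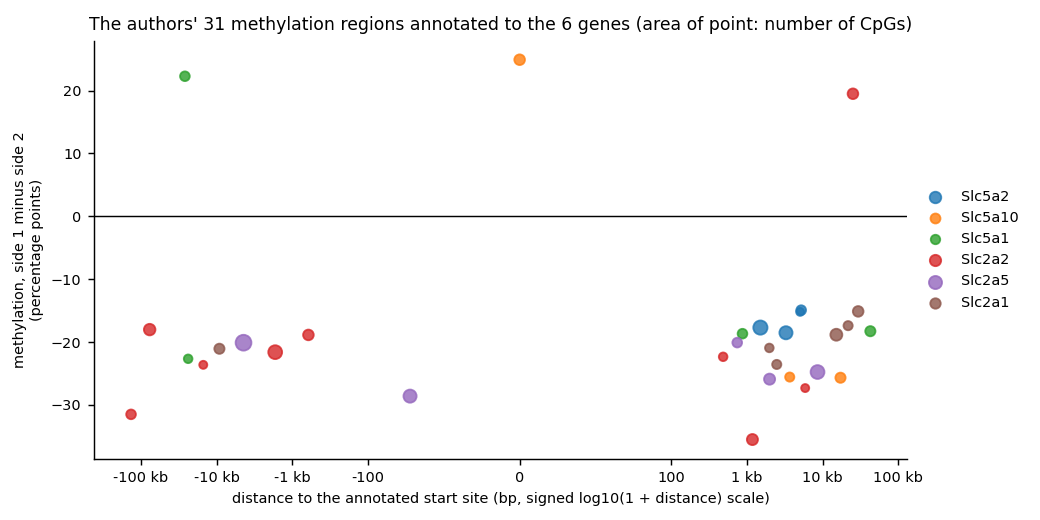
Methylation difference of side 1 minus side 2 (percentage points) of the 31 regions in the authors' deposited table, against distance to the annotated start (signed log10 of 1 + distance in bases), 1 point per region with area growing with the number of CpGs. Of the 31 points 28 lie below 0, from -14.9 to -35.5, and the Slc5a10 promoter region lies above it at 24.9.

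In the authors' deposited table of cluster markers (13 clusters), 5 of the 6 genes are listed. Slc5a2 and Slc2a2 stand under the cluster PT2, in 55.1% and 47.2% of its cells against 15.4% and 10.4% of other cells. Slc5a1 stands under LOH (40.3% against 3.5%) and Slc2a1 under CD-PC (63.2% against 14.8%). Slc5a10 stands under a cluster to which that table gives no cell type (42.7% against 3.8%). Slc2a5 is not among its 1193 genes.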

How the data were processed

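Single-cell counts were deposited by the authors as UMI count matrices per library. No counting tool is named in the sources used here. The submitters' processing notes name mm10, Seurat 2.3.4 and MACS2 2.1.2. Per the file headers, the authors' methylation table holds methylation levels as a fraction per side, an area statistic (a score, not used here), and region annotations. The authors' deposited marker table holds natural log fold changes, shares of cells as a fraction and p-values that treat cells as units.

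Cells with at least 500 UMIs, 200 genes and at most 50% mitochondrial UMIs were kept. Scrublet (scanpy 1.11.5) called 2, 0, 5 and 1441 doublets at its automatic threshold, so the highest scores up to 0.8% per 1000 cells were removed instead (20, 559, 28 and 1559 cells). A cell joined a class with at least 3 UMIs from at least 2 of its markers and a score at least 2 times the next, and a segment with a z score margin of at least 0.5. UMIs were summed per class and library, where every library held at least 20 cells, and tested with edgeR 4.0.16 in R 4.3.3 (TMM, quasi-likelihood, robust, Benjamini-Hochberg over all genes, threshold 0.05). DESeq2 1.42.0, another scaling, no filter on low counts, a replicate block, a sex block, other cell filters, a stricter gate of 6 UMIs and leaving out each library were alternatives. Intervals are exact at 95%, with a floor of 3 UMIs, and cover counting error only. The tests were checked on simulated data, where false calls exceeded the nominal share in most fits and some changed genes were missed.

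All 6 genes were named, with every called gene of the hexose list or its 8 largest changes, and the 3 genes most like each. One gene of the hexose list that this rule takes is not reported here. The members and lists were chosen with earlier results of these data known, and the gate rule was set after seeing the data. Per the labels, kidneys were chopped and mixed before being divided among assays. The 2 libraries of a genotype were of opposite sex by Xist and Ddx3y UMIs.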

Additional observations from a re-analysis of the deposited data

Results flagged for a closer look

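The difference of Gulo-/- from wild type was compared between the female and the male pair of libraries, with sex read from Xist and Ddx3y. The female pair was wild type replicate 1 and Gulo-/- replicate 2, and the male pair wild type replicate 2 and Gulo-/- replicate 1. In 5 of 25 pairs of gene and class, the directions were opposite beyond the exact Poisson counting intervals. The rest held both opposite and equal signs. Opposite, but not beyond the intervals, were Slc2a5 in S2 (log2 -1.23 female, 1.06 male) and Slc5a1 in the thick ascending limb (-1.11, 0.33). Slc2a1 in the whole proximal tubule had equal signs (2.55, 0.92). Each sex had 1 library per genotype, each pair held 1 shallow and 1 deep library, and the difference was not tested.

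Slc5a10 made up 3 of the 5. In the whole proximal tubule it went from 37.0 to 10.3 CPM in the female pair and from 21.2 to 32.5 CPM in the male pair, a difference between pairs of -2.47 on the log2 scale. In S2 it went from 90.2 to 11.3 and from 38.2 to 65.4 CPM (-3.77), and in S3 from 162 to 80.8 and from 36.6 to 123 CPM (-2.76). Slc5a2 in S1 went from 476 to 424 and from 233 to 356 CPM (-0.78). Slc2a2 in S1 went from 150 to 113 and from 78.8 to 113 CPM (-0.92).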

How the results depend on the processing

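Of 125 alternative values of 10 genotype differences of the transporters, 111 kept direction and side of the threshold, 9 became called and 5 changed sign. Of 230 values of 23 class differences, 214 kept both, 4 lost and 6 gained a call, and 6 changed sign. Both sets were chosen from the differences tested, and the 10 held none of Slc5a10 or Slc2a5. With no filter on low counts, 1 of 6 transporters was called between genotypes in the thick ascending limb, and it was not among the 10. It was one of the genes that had too few UMIs for the filter in that class. Slc5a2 between genotypes in S1 changed sign with no filter (-0.038) and with shared barcodes kept (-0.0013), and ranged from -0.47 to 0.67 leaving out 1 library. Slc2a1 in the thick ascending limb ranged from -0.0019 to 0.58. Slc2a5 from S1 to S3 changed sign with DESeq2 (-0.0050), no filter (-0.067), no doublet removal (-0.018) and shared barcodes kept (-0.045), and ranged from -0.18 to 0.18. With RLE size factors the median of all genes moved from 0.05 to 0.16 in the thick ascending limb contrast and from 0.02 to 0.14 in that of the distal tubule. The causes were not tested.

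Counts of all genes called between genotypes moved more. In the whole proximal tubule the 65 became 395 with DESeq2, 1038 with no filter, 0 with the sex block and 101 with shared barcodes kept, and 0 to 461 leaving out 1 library (0 without either Gulo-/- library, 461 without wild type replicate 1). In S1 the 48 became 166, 890, 266 and 121 in that order, 279 with segment scores over all libraries, and 0 to 711. In S2 the 42 became 70, 456, 232 and 73, 3 at a mitochondrial limit of 25%, 4 with the stricter gate, and 0 to 683. In S3 the 5 became 43 with DESeq2, 157 with no filter, 1 with the stricter gate, and 0 to 327. In the thick ascending limb the 116 became 4 with DESeq2 and 20 to 155, lowest without wild type replicate 2. In the distal tubule the 16 became 3 with DESeq2, 88 with no filter, 35 with shared barcodes kept, and 0 to 106. In endothelium the 37 became 88, 362 and 62 in that order, 20 at 25% mitochondrial UMIs, and 22 to 80. With no filter, S1 against S2 gave 658 genes (361), S2 against S3 204 (41, and 2 to 183 leaving out 1 library) and S1 against S3 1206 (724). Of the 31 methylation regions 19 differed by at least 0.2, 17 of them lower on side 1 and none at Slc5a2.

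The replicate block gave 461 genes in the whole proximal tubule, 218 in S1, 112 in S2, 58 in S3, 52 in the distal tubule and 282 in endothelium. The numbers share no animal or batch in the labels, and same-numbered libraries correlated at -0.244 (S3) to 0.146 (endothelium) in their deviations, so they were not read as pairs. The crossed pairing, which equals the sex block, called 7 genes in S3. The limit of 25% could not be run in S3, the thick ascending limb and the distal tubule, where a library fell under 20 cells. Cell numbers limit S3 (34 and 47 cells in the shallow libraries) and the distal tubule (53 and 34).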

Other observations

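Some classes were large enough in 1 or 2 libraries only and entered no comparison. Slc2a1 stood at 93.6 CPM in the 23 podocytes of Gulo-/- replicate 2, the filtration cells of the glomerulus. Neutrophils had 111 CPM in 1 wild type library and 34.0 CPM in 1 Gulo-/- library, and T and NK cells 12.3 CPM in 1 wild type and 15.1 CPM in 1 Gulo-/- library.

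Thick ascending limb cells with a UMI of Nos1, a marker of the macula densa, were few: 1, 3, 3 and 57 cells. Their Slc5a1 level was 728, 216, 480 and 264 CPM, above the 276, 144, 180 and 127 CPM of the whole class in each library. In Gulo-/- replicate 2, the only library with more than 3 such cells, the exact 95% Poisson interval was 223 to 310 CPM. This division was chosen after the values were seen and was not tested.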
